A study of Mus musculus with 8 samples.

Results

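The 10 genes Hilpda, Vldlr, Angptl4, Plin2, Plin3, Pnpla2, Lpl, Fabp4, Fabp5 and Pparg, which act in the storage of fat in lipid droplets and in the uptake of lipid from outside the cell, were taken by name from a table of 17091 features, and all 10 had a row. RNA was sequenced in immortalised skin fibroblasts, cells adapted to continuous culture, from C57BL/6 mice that were wild type (WT) or carried mir210lox/lox (KO in the library names). The allele flanks the microRNA gene Mir210 with lox sites for removal by the Cre recombinase. No Cre is named in the labels, so KO serves here as a group name only. Cells of both genotypes spent 24 hours in normoxia (21% oxygen) or in hypoxia (1%), which makes 4 groups of 2 libraries, or 8 libraries in total. The labels do not say whether a genotype is 1 or several cell lines, or whether replicates were separate cultures. The p-values therefore rest on a spread between libraries that could be technical.

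A lipid droplet is a store of triglyceride and sterol ester inside a monolayer of phospholipid that carries coat proteins, the perilipins. Fat leaves the droplet when adipose triglyceride lipase (encoded by Pnpla2) cuts triglyceride, and Hilpda, a small protein whose gene is a known target of the hypoxia-inducible factors (HIF), inhibits that lipase. Fat enters the cell after lipoprotein lipase (Lpl) releases fatty acids from lipoproteins, or with whole particles through receptors such as Vldlr. Angptl4 inhibits lipoprotein lipase, fatty acid binding proteins (Fabp4 and Fabp5) carry fatty acids inside the cell, and the nuclear receptor Pparg drives many of these genes in fat cells. In cultured cells, low oxygen is known to favour droplet storage, and Hilpda, Vldlr, Angptl4 and Plin2 have been described as induced by it.

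Levels are in the read counts that the authors normalised, here called normalised reads, and the lowest value is 1. Their totals ran from 7.93 M to 8.68 M per library, and the spacing of the low values gave an estimated 6.27 M (KO hypoxia replicate 1) to 11.8 M (KO normoxia replicate 2) reads behind them. The oxygen labels were checked on known hypoxia genes. The lactate exporter Slc16a3 was at 15, 13, 25 and 9 in the normoxia libraries and 333, 443, 634 and 606 in the hypoxia libraries. Mir210 was at the lowest value, 1, in all 8 libraries, so its value does not check the genotype labels. All 12 of 12 fibroblast markers reached 10 normalised reads in some library, with a summed level of 87143 to 118350. Lum and Fap did so only in the WT libraries numbered 2, and Dcn was at 12 to 25 in KO. Of 9 adipocyte markers 3 had a row, and their sum was 30 to 120. Transcripts under 1000 bases stood above their mean over the libraries by a median of 0.43 (log2) for replicate 2 of WT hypoxia and 0.36 for replicate 1 of KO normoxia, and between -0.34 and 0.18 in the other libraries. The lowest was KO normoxia replicate 2, so the KO normoxia libraries lie at opposite ends. In WT, both hypoxia libraries (0.18 and 0.43) stood above both normoxia libraries (-0.21 and -0.28). The WT hypoxia comparison therefore runs along with this shift. The 2 libraries with high short transcripts are called those that stand apart, and results are also given without them, or without KO normoxia replicate 2, where they matter.

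Levels per kilobase of the longest protein-coding transcript set the order of the genes. Plin2 was highest, with a mean over the 8 libraries of 756 normalised reads per kilobase. Hilpda followed at 308, Plin3 at 249, Fabp5 at 164 and Pparg at 116. Vldlr (86.4) and Angptl4 (84.1) were next to each other, and Fabp4 (25.0) and Pnpla2 (23.4) likewise. The Fabp4 mean rests mainly on the WT libraries numbered 2 (46 and 94 normalised reads), against 4 to 13 elsewhere. Lpl was lowest at 6.32. The ranges over the libraries overlapped for all neighbours in this order except the top pair, where the lowest Plin2 value (519.1 per kilobase) was just above the highest Hilpda value (518.3). Lpl and Fabp4 rested on as few as 3 estimated reads in a library, so that counting error alone is large there.

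Values were tested as log2(value + 1) with limma, a linear model that shares the estimate of spread across features, on the 12107 features with at least 10 normalised reads in at least 2 libraries. All 10 genes passed that filter. Differences are given on that log2 scale with their standard error (SE), and an adjusted p is limma's, two-sided, after Benjamini-Hochberg adjustment over the 12107 features, with a threshold of 0.05. Of the 10 genes, 0 passed in any of 7 comparisons. Over all features, hypoxia against normoxia called 0.107% in WT, 0.0578% in KO and 0.363% over both genotypes, the latter a test that pools the same 8 libraries. KO against WT called 0% in normoxia, 0% in hypoxia and 0.0248% over both oxygen levels, and the difference between the genotypes' hypoxia responses called 0%. At an unadjusted limma p under 0.05, hypoxia was higher for 3 of the 10 genes in WT (Hilpda, Vldlr and Angptl4), against 4.37% of all features. The same held for 1 gene in KO (Vldlr), against 2.28%, and for 3 genes over both genotypes (Hilpda, Vldlr and Angptl4), against 3.71%.

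Separation of the libraries needs no model. In WT both hypoxia values lay above both normoxia values for 5 of the 10 genes (Hilpda, Vldlr, Angptl4, Plin2 and Plin3), as for 18.9% of all tested features. In KO this was so for 4 (Hilpda, Vldlr, Angptl4 and Plin2), against 15.9%. In both genotypes at once it was so for those 4, against 3.60%. All 4 hypoxia libraries lay above all 4 normoxia libraries for 2 genes, Hilpda and Vldlr, against 2.06% of features. The set of 10 was chosen with earlier results of these data known, so the counts are a description. The median difference over the 10 genes was 0.45 in WT, where 7 of 10 were positive, and 0.26 in KO, where 6 of 10 were, beside medians over all features of -0.02 and 0.01.

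**Figure D1:**
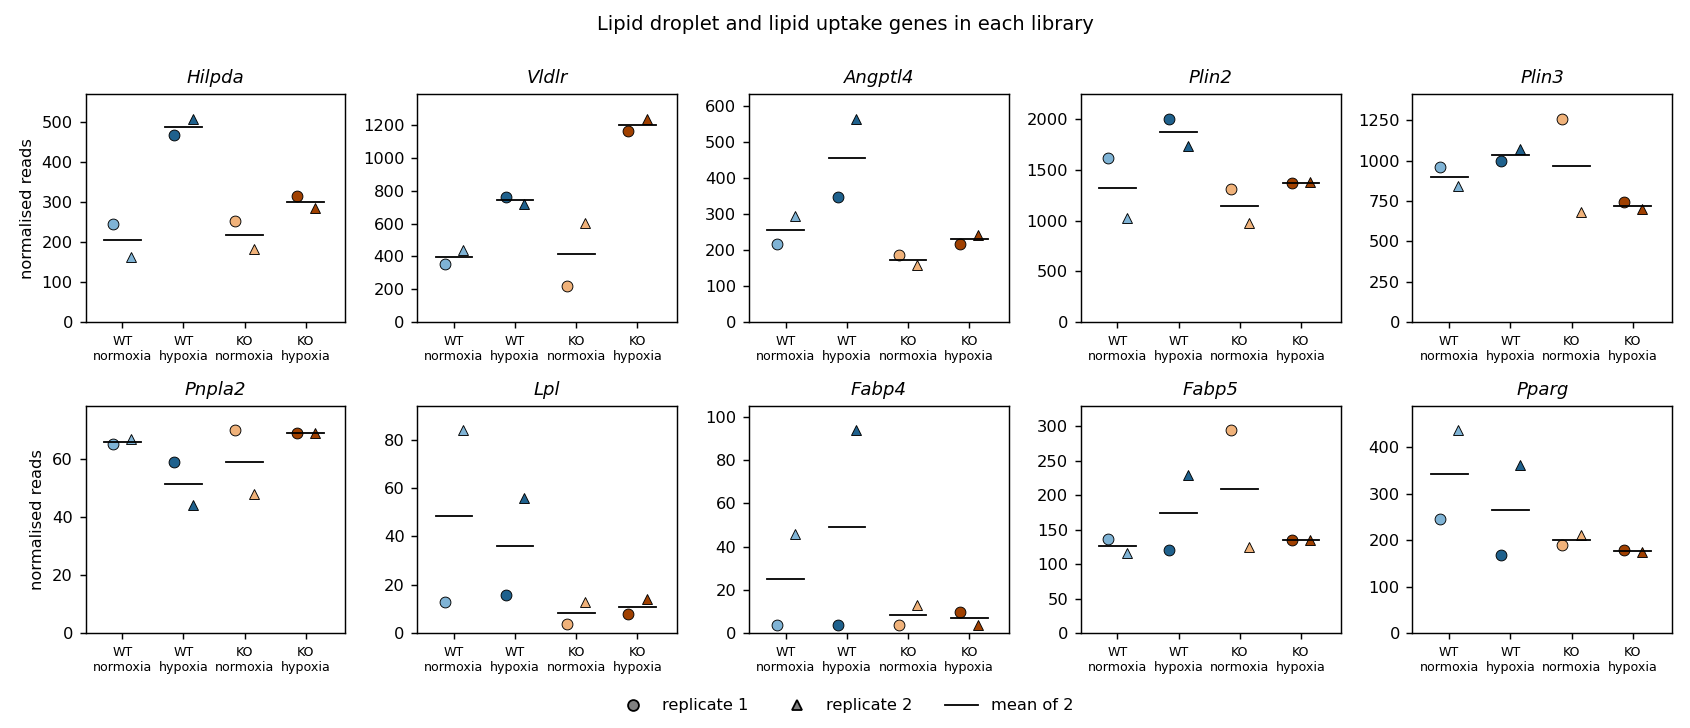
Normalised reads (vertical axis, from 0) of each of the 10 genes in the 4 groups, 1 panel per gene, with a circle for replicate 1, a triangle for replicate 2 and a line for the mean of both. Hilpda and Vldlr have every hypoxia point above every normoxia point, while Lpl and Fabp4 have 2 high WT points that carry the replicate number 2.

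Hilpda, the inhibitor of adipose triglyceride lipase, lies on chromosome 6 (29272488 to 29275446, plus strand, GRCm38, the build of all positions here). Its window around the RefSeq start at 29272626 (250 bases before to 50 after) holds the core letters of the HIF response element, ACGTG or GCGTG, 3 times. The search covered both strands of windows from RefSeq (GRCm38.p6), of which 43.8% held a match and 8.93% held at least 3. Stretches around the 3 matches are shown because Hilpda had the smallest p in WT hypoxia among the 10 genes, with the match in capitals and its first base counted from that start. The first and second also lie in the 5′ UTR of the longer transcript Hilpda-202, and the last in no UTR.
Hilpda -111, chr6:29272503-29272531, plus strand: caaccgcgagccGCGTGctttccgtgact
Hilpda -43, chr6:29272571-29272599, plus strand: gatggccagcggACGTGccccagggcgag
Hilpda -8, chr6:29272606-29272634, plus strand: caggttcggtacGCGTGcgcagtctccga
A match of letters is not a measured binding site.

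Hilpda was at 246 and 163 normalised reads in WT normoxia, 467 and 509 in WT hypoxia, 252 and 183 in KO normoxia and 316 and 286 in KO hypoxia. The hypoxia libraries were the 4 highest, and those of WT were above those of KO. Group means were 204.5 ± 58.7 and 488 ± 29.7 in WT (SD, n = 2), a ratio of 2.39, and 217.5 ± 48.8 and 301 ± 21.2 in KO, a ratio of 1.38. The log2 difference was 1.28 ± 0.27 in WT (unadjusted p = 0.00071 and adjusted p = 0.254 by limma) and 0.48 ± 0.27 in KO (adjusted p = 0.917). Leaving out KO normoxia replicate 2 gave 0.25 in KO, and leaving out replicate 1 of that group gave 0.71. Over both genotypes it was 0.88 ± 0.19 (95% confidence interval 0.46 to 1.30, unadjusted p = 0.00086 and adjusted p = 0.155 by limma). Over 17 alternative settings the pooled difference stayed positive, from 0.73 to 1.03. Hilpda is a short transcript of 982 bases. With each library's trend with length removed, its hypoxia difference was 0.99 in WT and 0.58 in KO. Leaving out both libraries that stand apart keeps KO normoxia replicate 2, where short transcripts were lowest, as the only KO normoxia library. Without both libraries that stand apart its pooled difference was 0.97 (adjusted p = 0.336 by limma, between 0.0708 and 0.864 over all alternatives). In bulk RNA, a lower level per cell and fewer cells that express the gene cannot be told apart.

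The genotypes were compared for Hilpda at each oxygen level. KO minus WT was 0.10 ± 0.27 in normoxia and -0.70 ± 0.27 in hypoxia (unadjusted p = 0.0263 and adjusted p = 0.641 by limma). The KO response minus the WT response was -0.80 ± 0.38, with a 95% confidence interval of -1.64 to 0.05 (adjusted p = 0.857). That interval includes 0. Over 17 alternatives the difference between the responses ran from -1.09, without WT normoxia replicate 1, to -0.41, after removal of each library's trend with length. In the main fit, 0 of the 10 genes reached an unadjusted limma p under 0.05 in this difference, against 3.14% of all features.

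Pnpla2, the lipase that Hilpda inhibits, was among the low genes. Pnpla2 lies on chromosome 7 (141455198 to 141460743, plus strand). It stood at 65 and 67 in WT normoxia, 59 and 44 in WT hypoxia, 70 and 48 in KO normoxia and 69 and 69 in KO hypoxia. The hypoxia difference was -0.37 ± 0.31 in WT (adjusted p = 0.871) and 0.25 ± 0.31 in KO (adjusted p = 0.923), by limma. The 95% interval over both genotypes ran from -0.55 to 0.43, which allows a difference in either direction. Within each genotype the direction differed, and 0 lies inside both intervals.

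Plin2, the perilipin found on droplets of most cell types, was the most abundant of the 10 genes. Plin2 lies on chromosome 4 (86648386 to 86670060, minus strand). It was at 1619 and 1021 in WT normoxia, 2004 and 1739 in WT hypoxia, 1311 and 980 in KO normoxia and 1369 and 1376 in KO hypoxia. Both hypoxia values exceeded both normoxia values within each genotype, but WT normoxia replicate 1 lay above both KO hypoxia libraries. The log2 difference was 0.54 ± 0.27 in WT, 0.28 ± 0.27 in KO and 0.41 ± 0.19 over both (95% confidence interval -0.01 to 0.83, unadjusted p = 0.0564 and adjusted p = 0.922 by limma). The size depended on single libraries. Without WT normoxia replicate 2 the difference was 0.21 in WT and 0.24 over both, and without WT normoxia replicate 1 it was 0.87 in WT. In KO it was 0.07 with KO normoxia replicate 2 left out and 0.49 with replicate 1 left out. Without both libraries that stand apart the pooled difference was 0.56.

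The Plin2 start region is shown beside that of Hilpda because these had the highest levels per kilobase of the genes with matches. Its RefSeq window (chromosome 4, minus strand, start at 86670059) held GCGTG once, written here as its complement CACGC, and ACGTG on both strands at one palindrome (CACGTG) that overlaps the start and the 5′ UTR of Plin2-201. Printed 5′ to 3′ along the gene, with 1 match in capitals each:
Plin2 -86, chr4:86670129-86670157, minus strand: ggttggggttccCACGCcctcatccccaa
Plin2 -4, chr4:86670047-86670075, minus strand: cagctgggctatCACGTggctcggaggct
Of the 10 genes 6 had a RefSeq window (10 windows in all), and 4 windows, of Hilpda, Plin2 and Pparg, held a match, beside 43.8% of all windows. Pparg, whose 2 matches are not printed, had a pooled hypoxia difference of -0.29. The windows of Vldlr, Plin3 and Pnpla2 held none, which says only that these letters are not in those windows.

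Plin3, a coat protein that moves from the cytosol to young droplets, was at 959 and 841 in WT normoxia, 996 and 1075 in WT hypoxia, 1261 and 680 in KO normoxia and 746 and 699 in KO hypoxia. Plin3 lies on chromosome 17 (56277476 to 56292873, minus strand). Its 2 KO normoxia libraries were the highest and the lowest of all 8. The hypoxia difference was 0.20 ± 0.28 in WT and -0.36 ± 0.28 in KO (adjusted p = 0.925 and 0.917 by limma). The KO value depended on the normoxia library used. Without KO normoxia replicate 2, which leaves the library that stands apart as the lone KO normoxia sample, assumed to vary like the other groups, Plin3 fell by 0.80 in KO hypoxia (adjusted p = 0.0483 by limma, between that value and 1 over the alternatives). That fit called 758 of 12081 features (6.27%), against 7 with all libraries. Without KO normoxia replicate 1 the difference was 0.09.

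**Figure D2:**
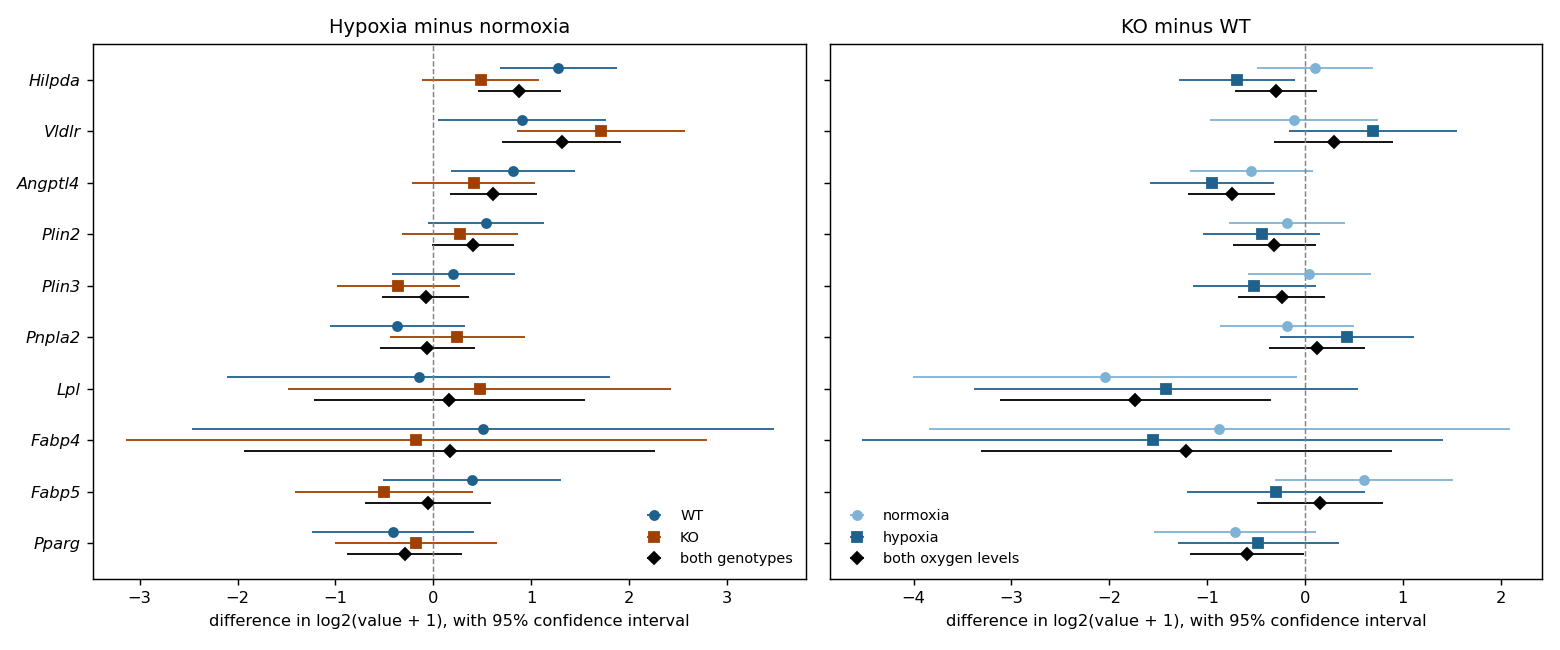
Log2 differences of the 10 genes on the log2(value + 1) scale, hypoxia minus normoxia on the left (WT, KO and both genotypes) and KO minus WT on the right (normoxia, hypoxia and both oxygen levels), with bars for the 95% confidence interval of the limma fit (2 libraries a group). Hilpda in WT (1.28) and Vldlr in KO (1.72) are the highest differences within each genotype in the left panel, and the intervals of Lpl and Fabp4 are the widest.

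Among the uptake genes, Vldlr, the receptor that takes up triglyceride-rich lipoproteins, had the largest hypoxia difference of the 10 in KO and over both genotypes, while Hilpda had the largest in WT. Without KO normoxia replicate 1 the pooled value of Hilpda (1.00) was above that of Vldlr (0.95). In WT, Vldlr was above Hilpda with each library's trend with length removed (1.17 and 0.991). The same held in WT without WT normoxia replicate 2 (1.065 and 0.984). Vldlr lies on chromosome 19 (27216484 to 27254231, plus strand). It was at 354 and 441 in WT normoxia, 765 and 719 in WT hypoxia, 220 and 607 in KO normoxia and 1166 and 1240 in KO hypoxia. Every hypoxia library was above every normoxia library, and the KO hypoxia libraries were the 2 highest. Group means were 397.5 ± 61.5 and 742 ± 32.5 in WT (SD, n = 2), a ratio of 1.87, and 413.5 ± 273.7 and 1203 ± 52.3 in KO, a ratio of 2.91. The log2 difference was 0.91 ± 0.39 in WT (adjusted p = 0.784 by limma) and 1.72 ± 0.39 in KO (unadjusted p = 0.0012 and adjusted p = 0.361 by limma). Over both genotypes it was 1.31 ± 0.27 (95% confidence interval 0.70 to 1.92, unadjusted p = 0.00068 and adjusted p = 0.136 by limma).

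The pooled Vldlr difference passed the test under some of its 17 alternatives. Without KO normoxia replicate 1, where Vldlr was lowest, it was 0.95 (adjusted p = 0.0301 by limma), in a fit that called 0.415% of all features. Without KO normoxia replicate 2 it was 1.68 (adjusted p = 0.00222), with 0.389% called. With the length trend removed, an alternative chosen after the data were seen, it was 1.40 (adjusted p = 0.00974), with 0.463% called. Without both libraries that stand apart it was 0.97 (adjusted p = 0.078), and over all alternatives the adjusted p ran from 0.00222 to 0.658 with the difference between 0.95 and 1.68. In KO alone, leaving out KO normoxia replicate 2 gave 2.44 (adjusted p = 0.013 by limma), in the fit that called 6.27% of all features, and leaving out KO normoxia replicate 1 gave 0.98 (adjusted p = 0.447). Vldlr is a long transcript of 7971 bases, and KO normoxia replicate 1 has the strongest fall of values with length of the 8 libraries (-0.17 per doubling), against 0.16 in KO normoxia replicate 2. With the trend removed, the Vldlr difference in KO was 1.63, beside 1.72 in the main fit. The part of that trend in the Vldlr values was not tested.

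The genotypes were not shown to differ in Vldlr. KO minus WT was -0.11 ± 0.39 in normoxia and 0.70 ± 0.39 in hypoxia (adjusted p = 0.651 by limma). The difference of the responses was 0.81 ± 0.55 (95% confidence interval -0.41 to 2.02, adjusted p = 0.857 by limma). Over 17 alternatives this difference ran from 0.03, without both libraries that stand apart, to 1.54, without KO normoxia replicate 2. Hilpda and Vldlr thus had opposite signs in that difference, each with an interval in the main fit that includes 0.

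Mature miR-210-3p, whose gene the floxed allele targets, is shown with its seed in capitals because targets of a miRNA often hold the complement of its seed in their 3′ UTR. The sequence is from RefSeq (GRCm38.p6, chromosome 7, 141221407 to 141221428, minus strand), and a Vldlr stretch follows it.
miR-210-3p: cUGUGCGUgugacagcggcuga
Vldlr-207 3′ UTR, 6-base match at chr19:27254084-27254089, plus strand: aaggcccatgCGCACAccagaccgct
The 7-base complement ACGCACA was in the longest annotated 3′ UTR of 0 of the 10 genes and of 3.25% of 21824 genes. The shorter CGCACA was in that of Vldlr alone among the 10 and of 8.98% of genes. A match of 6 letters in a UTR of 5094 bases is a description of the sequence and not of binding.

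Angptl4, the secreted inhibitor of lipoprotein lipase, was at 216 and 293 in WT normoxia, 348 and 564 in WT hypoxia, 187 and 158 in KO normoxia and 217 and 242 in KO hypoxia. Angptl4 lies on chromosome 17 (33773750 to 33781830, minus strand). Its hypoxia values were above normoxia values within each genotype, and KO values were below WT values within each oxygen level. Both KO hypoxia libraries lay within the WT normoxia range. The hypoxia difference was 0.81 ± 0.28 in WT (unadjusted p = 0.0164 and adjusted p = 0.767 by limma), 0.41 ± 0.28 in KO and 0.61 ± 0.20 over both (adjusted p = 0.777). In WT it was 0.47 without WT hypoxia replicate 2 and 1.16 without WT hypoxia replicate 1. Group means in hypoxia were 456 ± 152.7 in WT and 229.5 ± 17.7 in KO (SD, n = 2), a KO to WT ratio of 0.503. KO minus WT was -0.55 ± 0.28 in normoxia and -0.95 ± 0.28 in hypoxia (unadjusted p = 0.00727 and adjusted p = 0.641 by limma), and -0.75 ± 0.20 over both oxygen levels (unadjusted p = 0.0038 and adjusted p = 0.485). Without WT hypoxia replicate 2, its highest library, the hypoxia gap between genotypes was -0.60, and without WT hypoxia replicate 1 it was -1.30.

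KO was set against WT over all 10 genes. In hypoxia both KO values lay below both WT values for 5 of the 10 genes (Hilpda, Angptl4, Plin2, Plin3 and Lpl), against 24.5% of tested features. They lay above them for 2 (Vldlr and Pnpla2), against 26.2%. In normoxia KO lay below WT for 2 (Angptl4 and Pparg), against 11.0%. At an unadjusted limma p under 0.05, KO was lower for 1 gene in normoxia (Lpl), against 1.54% of features. It was lower for 2 in hypoxia (Hilpda and Angptl4), against 3.06%, and for 3 over both oxygen levels (Angptl4, Lpl and Pparg), against 2.68%. The median over the 10 genes was -0.31, with 7 of 10 negative, beside a median over all features of -0.01.

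Lpl, the lipase that frees fatty acids from lipoproteins, was at 13 and 84 in WT normoxia, 16 and 56 in WT hypoxia, 4 and 13 in KO normoxia and 8 and 14 in KO hypoxia. Lpl lies on chromosome 8 (68880491 to 68907448, plus strand). Its 2 high libraries were the WT libraries numbered 2, and all others were at 16 or less. KO minus WT over both oxygen levels was -1.73 ± 0.62 (unadjusted p = 0.0191 and adjusted p = 0.699 by limma), and the pooled hypoxia difference was 0.16 ± 0.62. WT means were 48.5 ± 50.2 in normoxia and 36.0 ± 28.3 in hypoxia (SD, n = 2).

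Fabp4, the fatty acid binding protein typical of fat cells and macrophages, was low in most libraries too. Fabp4 lies on chromosome 3 (10204088 to 10208576, minus strand). It was at 4 and 46 in WT normoxia, 4 and 94 in WT hypoxia, 4 and 13 in KO normoxia and 10 and 4 in KO hypoxia. The WT libraries numbered 2 were again the highest. No comparison came below an unadjusted limma p of 0.05, and the hypoxia difference over both genotypes was 0.17 ± 0.95.

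Pparg, the nuclear receptor that drives fat cell differentiation, was at 246 and 437 in WT normoxia, 168 and 361 in WT hypoxia, 189 and 211 in KO normoxia and 180 and 174 in KO hypoxia. Pparg lies on chromosome 6 (115360951 to 115490399, plus strand). The same 2 WT libraries were highest, and the remaining 6 lay between 168 and 246. KO minus WT was -0.59 ± 0.26 over both oxygen levels (unadjusted p = 0.0471 and adjusted p = 0.813 by limma). The hypoxia difference was -0.41 ± 0.37 in WT and -0.17 ± 0.37 in KO (adjusted p = 0.875 and 0.952).

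Both WT libraries numbered 2 were at least 2-fold above both numbered 1 for 2 of the 10 genes, Lpl and Fabp4, and for 2.45% of the tested features. The reverse held for 0.405% in WT. In KO, replicates 2 were above replicates 1 by that margin for 0.0661% of features and below for 0.644%. Of 86 further lipid genes tested, 5 met the first rule (Apoe, Cebpd, G0s2, Klf15 and Plin4), and this rule was chosen after the values were seen. Apoe, the apolipoprotein ligand of Vldlr and its relatives, was at 19 and 312 in WT normoxia, 17 and 307 in WT hypoxia and 9 to 25 in KO. G0s2, another inhibitor of adipose triglyceride lipase, was at 24 and 162, then 40 and 157, and at 24 to 42 in KO. Plin4, a perilipin of fat cells, was at 26 and 112, then 34 and 104, and at 31 to 70 in KO.

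Beside these values stand the adipocyte markers. Their sum was 120 and 111 in the WT libraries numbered 2 and 30 to 76 in the other libraries, and Plin4 made up nearly all of it. Cidec, a droplet fusion protein of fat cells, was at 1 in all 8 libraries, and Adrb3, the fat cell adrenergic receptor, at 3 to 7. Macrophage and leukocyte markers, 6 of 8 with a row, summed to 83 and 82 in the WT libraries numbered 2, within the range of the other libraries (68 to 104). Cd14 made up most of that sum, at 43 and 46 in the WT libraries numbered 2 and 47 to 79 elsewhere. Lyz2 was at 8 and 20 against 1 to 10 elsewhere, and Csf1r at 19 and 3 against 1 to 6. Ptprc, Cd68 and Itgam lay within the range of the other libraries. Endothelial markers, 6 of 6 with a row, summed to 49 and 49 in the WT libraries numbered 2 and to 14 to 38 in the other libraries. Of these, Tek was at 15 and 27 in the WT libraries numbered 2 and at 3 to 9 elsewhere, while Emcn was at 1 in all 8 libraries and Pecam1 at 1 or 2. The part of other cell types in these values was not tested. Leaving out WT normoxia replicate 2 moved KO minus WT over both oxygen levels to -1.08 for Lpl, -0.41 for Fabp4 and -0.39 for Pparg. Without WT hypoxia replicate 2 these values were -1.30, -0.15 and -0.32.

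**Figure D3:**
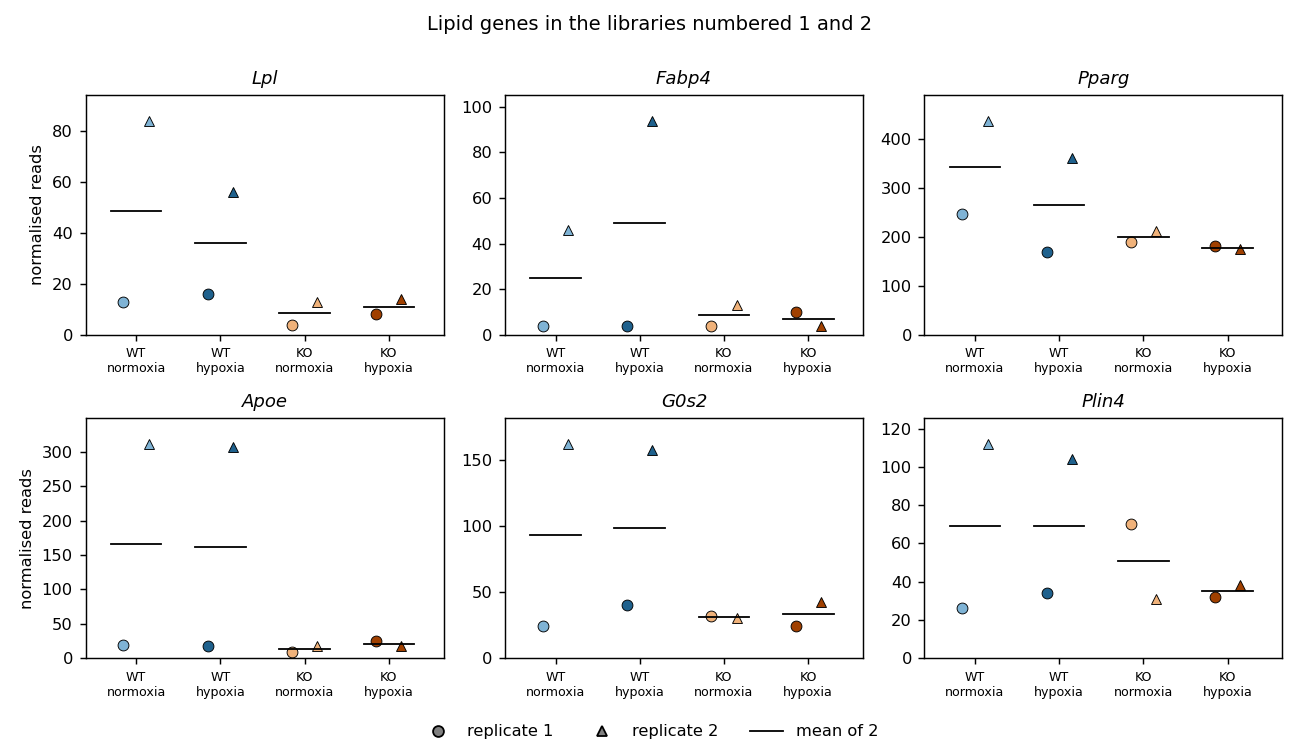
Normalised reads (vertical axis, from 0) of Lpl, Fabp4, Pparg, Apoe, G0s2 and Plin4 in the 4 groups, with a circle for replicate 1, a triangle for replicate 2 and a line for the mean of both. The WT libraries numbered 2 are the highest points of each panel at both oxygen levels, for example 312 and 307 for Apoe against 9 to 25 elsewhere.

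Fabp5, the fatty acid binding protein of skin epithelium and many cultured cells, was at 137 and 116 in WT normoxia, 121 and 229 in WT hypoxia, 295 and 125 in KO normoxia and 136 and 135 in KO hypoxia. Fabp5 lies on chromosome 3 (10012548 to 10016607, plus strand). Its 2 high values belong to the libraries where short transcripts stand high, WT hypoxia replicate 2 and KO normoxia replicate 1, and the Fabp5 transcript has 987 bases. The other 6 libraries lay between 116 and 137. Hypoxia differences were 0.40 ± 0.41 in WT and -0.50 ± 0.41 in KO (adjusted p = 0.898 and 0.917 by limma). Without KO normoxia replicate 1 the KO difference was 0.12.

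The features with the closest pattern were found by the Pearson r of log2(value + 1) over the 8 libraries, which share the 4 groups, and are a description. For Hilpda they were Ddit4, a brake on mTOR that HIF induces (r = 0.97), 9330179D12Rik (0.97) and Gng11 (0.97). For Vldlr they were Ulk3 (0.98), Zfp292 (0.97) and Slc30a9 (0.97), for Angptl4 Tmem50a (0.97), Tpm2 (0.96) and Sh3bgrl (0.96), and for Plin2 the enolase Eno3 (0.96), Snhg12 (0.94) and Gtpbp2 (0.94). No feature appeared for more than 1 of the 4 genes.

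The 10 genes were then set beside 7 wider lists of lipid genes, with 122 entries of which 86 were tested. By limma, 0 of the 86 passed in hypoxia against normoxia over both genotypes. At an unadjusted p under 0.05, 1 was higher (Slc27a3) against 3.71% of all features, and 3 were lower (Lipe, Rxra and Sort1) against 1.59%. The median over the 86 was -0.09 and that over the 10 genes 0.17, beside 0.00 over all features. Lipe and Sort1 are named after their values were seen.

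For droplet coat and assembly genes the median was -0.11 (0 of 9 passed in either direction). Fitm2, which helps droplets bud, was at -0.26 ± 0.18, and Rab18, a small GTPase on droplets, at 0.24 ± 0.20. Lmf1, needed for the maturation of lipoprotein lipase, was at 0.26 ± 0.19. For lipolysis genes the median was -0.08 (0 of 8), with Mgll, the monoglyceride lipase, at 0.28 ± 0.26, the lysosomal Lipa at -0.14 ± 0.16 and Abhd6 at 0.18 ± 0.18. Lipe, hormone-sensitive lipase, was at 14 and 10 in WT normoxia, 3 and 4 in WT hypoxia, 16 and 7 in KO normoxia and 4 and 7 in KO hypoxia, near the level where single reads count.

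Receptors and ligands of lipoprotein uptake, the list closest to Vldlr, had the lowest median, -0.24 (0 of 9 passed). Lrp8, the nearest relative of Vldlr, was at -0.42 ± 0.26 and Lrp1, the large scavenging receptor, at 0.39 ± 0.21. Vldlr had a positive difference of 1.31 where 7 of these 9 were negative.

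Fatty acid uptake and binding genes had a median of 0.01 (0 of 10 passed). Slc27a3, of the fatty acid transport protein family, was at 43 and 39 in WT normoxia, 76 and 167 in WT hypoxia, 87 and 26 in KO normoxia and 107 and 79 in KO hypoxia (1.18 ± 0.38, unadjusted p = 0.0102 and adjusted p = 0.728 by limma). KO normoxia replicate 1 lay among its hypoxia values. Dbi, the acyl-CoA binding protein, was at 0.14 ± 0.26, and the acyl-CoA synthetases Acsl1 and Acsl3 were at -0.11 ± 0.18 and -0.11 ± 0.15. Triglyceride synthesis genes had a median of -0.09 (0 of 15), from Agpat1, an acyltransferase, at -0.26 ± 0.21 to Lpin3, a phosphatidate phosphatase, at 0.44 ± 0.22, with Agpat3 at -0.21 and Agpat6 at -0.23.

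Fatty acid oxidation genes had a median of -0.01 (0 of 22), with Cpt1a, which admits fatty acids to mitochondria, at -0.20 ± 0.15. The electron transfer genes Etfa and Etfdh were at 0.27 ± 0.18 and 0.20 ± 0.15. PPAR and adipogenic regulators had a median of -0.15 (0 of 13). Rxra, the partner receptor of Pparg, was at 629 and 525 in WT normoxia, 425 and 427 in WT hypoxia, 742 and 450 in KO normoxia and 429 and 389 in KO hypoxia (-0.47 ± 0.19, unadjusted p = 0.0311 and adjusted p = 0.909 by limma). Its relative Rxrb was at -0.24 ± 0.20 and Cebpb, an early adipogenic factor, at -0.34 ± 0.21.

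**Figure D4:**
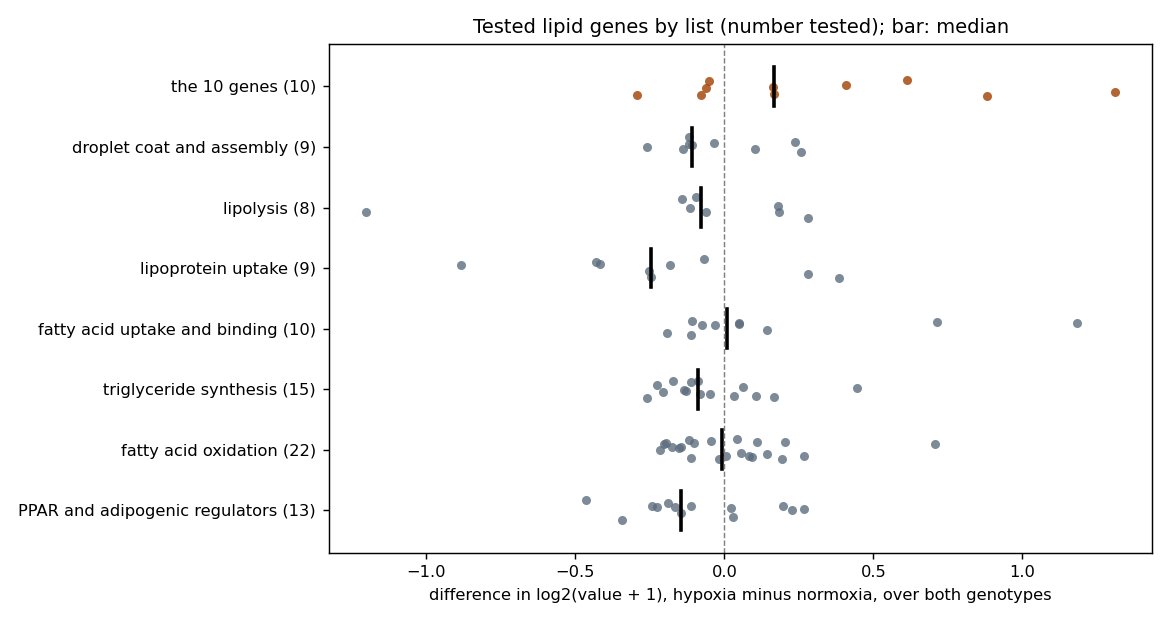
Pooled hypoxia differences (log2 scale, hypoxia minus normoxia over both genotypes) of the 10 genes and of the tested genes of 7 wider lists, on the horizontal axis, with a point for each gene (spread vertically for legibility) and a bar for each list's median. Vldlr (1.31) and Hilpda (0.88) lie to the right of most points, while the medians of the 7 lists lie between -0.24 and 0.01.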

How the data were processed

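RNA libraries from 8 samples in 4 groups were used. Total RNA from a miRNeasy kit went into a small RNA library set for SOLiD, per the labels' protocols. The deposited table holds a score per feature: per its name, the authors' normalised counts, rounded to whole numbers. The aligner, counter, build, strand use and normalisation were not given in the sources used here. Overlapping genes and those that have near-identical copies may share reads. A count test was planned only for raw counts, so limma-trend (limma 3.58.1, R 4.3.3) was fitted to log2(value + 1) over all 8 libraries, with 4 groups, no replicate term and a filter of 10 in at least 2 libraries. It was tested on simulated data. With 2 libraries against 2, the smallest p of an exact test is 0.333, so each p rests on the spread shared by the groups. Depth was estimated from the value of 1 read per library (0.674 to 1.38). Gene positions and lengths are from GENCODE M21 (GRCm38), promoter windows and the miRNA from RefSeq (GRCm38.p6). The 10 genes, the lists and the tests were chosen with earlier results of these data known. Genes named from the lists are those past the pooled hypoxia test, or up to 4 per list with the largest pooled difference at a mean of at least 50, some of which are not reported here. Alternatives were another pseudocount (10), another minimum (50) or none, other scalings, each library left out, both libraries that stand apart left out, a replicate block, and the length trend removed.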

Additional observations from a re-analysis of the deposited data

How the results depend on the processing

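Of 1223 values recomputed for the 10 genes over 7 comparisons, 1139 kept their direction without a call and 6 were called. The remaining 78 changed sign. For these, the unadjusted p of the main fit and the adjusted p of the alternative were both at least 0.05, by limma. The number of the 10 genes called was 0 in each comparison. In pooled hypoxia it was 1 (Vldlr) with a replicate block, adjusted p = 0.0431 by limma, 1 with the length trend removed, and 0 to 1 with each library left out. In KO hypoxia it was 0 to 2 with each library left out, 2 (Vldlr and Plin3) coming without KO normoxia replicate 2, where 6.27% of all features were called. In the other 5 comparisons it was 0 under every alternative run. The labels do not say what a library number stands for. Same-numbered libraries correlated in their deviations at 0.565 (WT) and 0.229 (KO) between oxygen levels, a hint from the data, and the replicate block moved the features called in pooled hypoxia from 44 to 56, in WT from 13 to 19 and in KO from 7 to 11. Depth limits Lpl and Fabp4 most, at 3 estimated reads in the lowest library.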

Other observations

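Of the fibroblast markers, 2 parted the WT libraries by number in the way of Lpl and Fabp4, as seen after the values were known. Lum, a collagen-binding proteoglycan, was at 27 and 36 normalised reads in the WT libraries numbered 2 (normoxia, then hypoxia), 4 and 6 in those numbered 1, and 1 to 4 in KO. Fap, a surface protease of activated fibroblasts, was at 38 and 40, against 7 and 9, and at 4 to 7 in KO. Cebpd, an early adipogenic factor, was at 375 and 900, against 166 and 185, and at 129 to 342 in KO.

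Among the 22 fatty acid oxidation genes, 20 had a positive hypoxia difference in WT (median 0.16) and 5 in KO (median -0.17), and 0 passed the test in either. Over all features, 47.8% were positive in WT and 51.1% in KO. Those 2 comparisons use different libraries, and each includes 1 of the libraries in which short transcripts stood high. In WT, short transcripts stood higher in both hypoxia libraries (0.18 and 0.43) than in both normoxia libraries (-0.21 and -0.28). The part of that shift in these counts was not tested.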
